A study of Mus musculus with 18 samples.

Results

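The TGF-beta, activin and myostatin axis was followed in forelimb buds of mouse embryos through 10 of the 55487 genes counted. Its members were the ligand genes Tgfb1, Tgfb2, Tgfb3, Inhba, Inhbb, Gdf11 and Mstn and the genes of the extracellular antagonists Fst, Wfikkn1 and Wfikkn2, matched to the count rows by Ensembl gene identifier. The axis was selected on the counts of Wfikkn2, whose product inhibits Gdf11 and myostatin and which had fallen strongly in mutant buds. All values of Wfikkn2, in controls as well as in mutants, are therefore given as a description with no test, and the other 9 genes were tested. All 10 genes passed the filter on low counts.

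Both genotypes carried Esco2fl/fl, in which loxP sites flank part of Esco2, the gene of an acetyltransferase that helps to hold sister chromatids together. Mutants (Esco2fl/fl;Prrx1-CreTg/0) also carried the Prrx1-Cre transgene, which is known to be active in limb mesenchyme, so that ectoderm, endothelium, blood cells and muscle precursors of the bud are not its known targets. Controls (Esco2fl/fl) had no Cre, and an effect of Cre cannot be told apart from an effect of Esco2 loss. Stages are named by embryonic day (E), and 3 mutant and 3 control libraries, made from single limb buds, came from E9.5, as many from E10.5 and as many from E11.5. Whether libraries of the same group represent different embryos or litters is not stated, and p-values measure only their spread.

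Each library held between 35034237 and 56230058 counts. Esco2 itself, counted over all of its exons, ran from 25.0 to 28.1 CPM (counts scaled to library size) in controls and from 15.3 to 19.8 in mutants at E9.5. The ranges were 28.1 to 33.6 and 18.9 to 22.3 CPM at E10.5, and 20.6 to 30.9 and 22.5 to 23.8 at E11.5, in the same order. A pair of libraries stood apart. Control E9.5 replicate 1 had 22294 genes detected, against 24125 or more in the others, and mutant E10.5 replicate 3 had 18346 CPM of summed erythroid markers, against 5884 and 9080 in the other mutants of its stage. Forelimb mesenchyme markers were present in every library, and hindlimb markers summed to at most 16.1 CPM. The mesenchyme markers summed to between 1329 and 1423 CPM in controls and between 749 and 944 in mutants at E10.5, and to between 1409 and 1562 and between 682 and 949.6 at E11.5. Of these 6 markers, 3 were lower in mutants at E10.5 and 4 at E11.5 (edgeR, adjusted p below 0.05), where 6.63% and 9.52% of all genes fell. Msx1 (log2 change 0.44 and 0.11) and Twist1 (-0.41 and -0.44) passed at neither stage. Markers of surface ectoderm and its ridge moved the other way. At both stages 7 of 7 were higher in mutants, where 7.30% and 8.02% of all genes rose. Their sums were 281 to 409 CPM in controls and 638 to 926 in mutants at E10.5. At E11.5 the sums were 255 to 386 and 560.1 to 788, in the same order. In such bulk samples fewer cells of a type and less RNA per cell cannot be told apart, and the part of this shift in the results that follow was not tested.

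Ligands of the TGF-beta superfamily are secreted as dimers that bind a pair of type I and type II receptor kinases. TGF-betas, activins, Gdf11 and myostatin then act through Smad2 and Smad3, which enter the nucleus together with Smad4. TGF-betas are held latent in the matrix until they are released, and activins, Gdf11 and myostatin are kept from their receptors by follistatin, the product of Fst. The products of Wfikkn1 and Wfikkn2 are more selective and bind Gdf11 and myostatin. In the embryo Gdf11 is best known for patterning the trunk along its length, and myostatin for limiting the growth of skeletal muscle.

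Members of the axis differed between mutants and controls at E10.5 and E11.5, in both directions. At E9.5, 0 of the 9 tested members passed an adjusted p of 0.05 in edgeR's quasi-likelihood test (0.184% of all 20118 genes tested did), and DESeq2 also called 0. In edgeR 2 of the 9 had an unadjusted p under 0.05, as had 1996 of all 20118 genes. At E10.5, Tgfb1 and Wfikkn1 rose and Gdf11 fell, which is 3 of 9 members against 13.9% of all genes (7.30% rose and 6.63% fell). At E11.5, Tgfb1 and Wfikkn1 rose and Tgfb2, Tgfb3 and Gdf11 fell, which is 5 of 9 members against 17.5% of all genes (8.02% rose and 9.52% fell). The median log2 change of the 9 members was -0.30, -0.15 and -0.68 at the 3 stages, beside medians over all genes of -0.0099, 0.0177 and 0.0137.

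**Figure D1:**
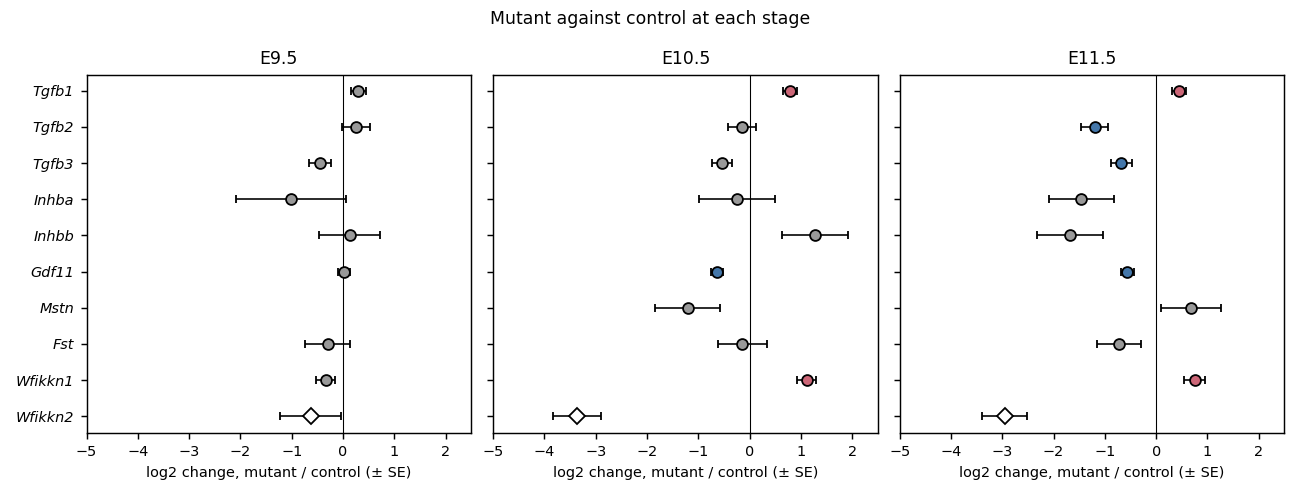
Log2 change of each member between mutants and controls, a panel per stage, with the standard error of the fit (3 mutant and 3 control libraries per stage). Red points rose and blue points fell past an adjusted p of 0.05, grey points did not pass, and the open diamond is Wfikkn2, which was not tested. Mstn at E9.5 is left out because its mutant libraries held at most 1 count. Wfikkn1 and Wfikkn2 lie on opposite sides of 0 at E10.5 (1.11 and -3.37) and at E11.5 (0.75 and -2.95).

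In control buds the members also differed widely in level and course. Per kilobase of exon (FPKM), Gdf11 was the most abundant of the 10 in controls at each stage, at 16.0 ± 2.46, 24.7 ± 0.309 and 23.2 ± 1.27 (SD, n = 3), and its libraries did not overlap those of the gene next in order. That next gene was Wfikkn1 at E9.5 (9.99 ± 1.48 FPKM), whose libraries overlapped those of Tgfb2 (8.40 ± 0.736), and Tgfb2 at the later stages (11.1 ± 0.962 and 19.5 ± 2.01). The lower end of the order was not resolved: at E9.5 the libraries of Inhbb, Wfikkn2, Mstn and Inhba overlapped from each gene to the next, and so did those of Wfikkn1, Mstn, Fst, Inhbb and Inhba at E10.5. In mutants Gdf11 was again first at each stage (16.3 ± 1.11, 16.0 ± 1.16 and 15.7 ± 2.73 FPKM), but at E10.5 its libraries overlapped those of Tgfb2.

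From E9.5 to E10.5 in controls, 3 of the 9 tested members rose (Tgfb3, Gdf11 and Mstn) and 3 fell (Inhbb, Fst and Wfikkn1), where 27.5% of all genes changed (15.0% up and 12.5% down). From E10.5 to E11.5, 3 rose (Tgfb3, Inhba and Fst) and 0 fell, where 9.49% of all genes changed (6.60% up and 2.89% down). DESeq2 called 5 at this second step, with Tgfb2 and Inhbb, where it called 13.5% of all genes. Tgfb3 rose at both steps.

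**Figure D2:**
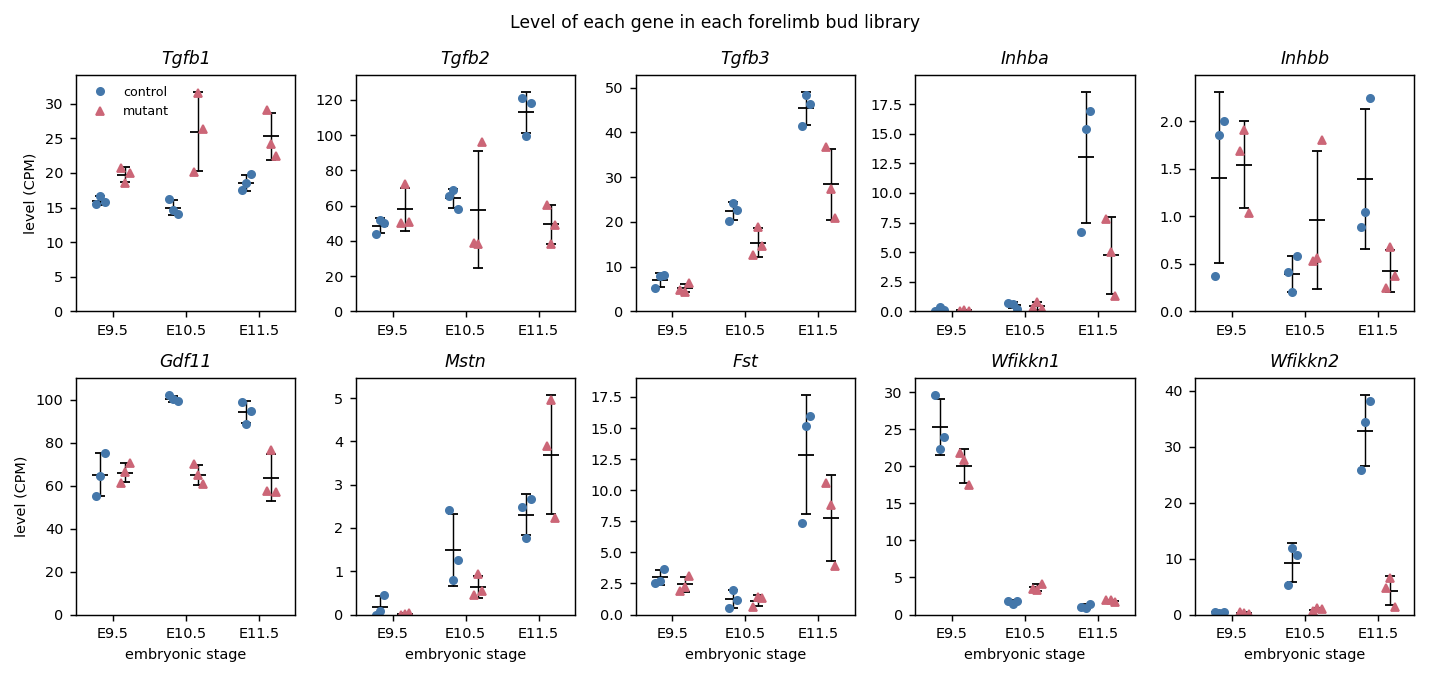
CPM of each member in each library by stage, with a linear axis from 0 in every panel. Circles are controls, triangles are mutants, and bars give the mean and SD of 3 libraries. Control levels of Tgfb3 and Wfikkn2 climb through the 3 stages, that of Wfikkn1 drops after E9.5, and mutant levels of Gdf11 at E10.5 and E11.5 lie between 57.2 and 76.5 CPM, below all controls of those stages.

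Among the TGF-beta ligands, Tgfb1 was higher in mutants at E10.5 and E11.5, and Tgfb2 and Tgfb3 were lower at E11.5. Tgfb1, at chr7:25687002-25705077 on the plus strand of mm10, encodes a TGF-beta made by many blood, endothelial and immune cells as well as by connective tissue. The 250 bases before its start (RefSeq, GRCm38.p6, chr7:25686752-25687001, plus strand) are shown because it is a member that changed at both later stages, as are those of Gdf11 and Wfikkn1 with these genes. Each window was searched on both strands for TATAAA, the core of a TATA box, and CAGAC, the core of a Smad-binding element, and matches are in capitals. Of 32851 such windows, 12.4% hold TATAAA and 42.2% hold CAGAC, and the Tgfb1 window holds neither.
Tgfb1: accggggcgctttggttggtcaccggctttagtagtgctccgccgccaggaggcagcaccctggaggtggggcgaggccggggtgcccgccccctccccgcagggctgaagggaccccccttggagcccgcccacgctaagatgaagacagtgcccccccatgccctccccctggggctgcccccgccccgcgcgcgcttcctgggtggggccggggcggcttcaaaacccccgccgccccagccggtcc

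Tgfb1 stood at 15.5, 16.7 and 15.8 CPM in controls and 20.7, 18.6 and 20.0 in mutants at E9.5. The E10.5 controls had 16.3, 14.6 and 14.1 CPM against 20.1, 31.5 and 26.3 in mutants. The E11.5 controls had 17.5, 18.5 and 19.8 CPM against 29.1, 24.2 and 22.5 in mutants. Every mutant library was thus above every control library at each stage. On the log2 scale the E9.5 difference was 0.30 ± 0.14 (SE) and did not pass (adjusted p = 0.497). The E10.5 rise was 0.79 ± 0.14, or 1.73-fold (adjusted p = 0.00125), and the E11.5 rise was 0.44 ± 0.14 (adjusted p = 0.0385). The E11.5 call was thin, since the adjusted p rose to between 0.0635 and 0.168 without any 1 of the libraries other than mutant replicate 3. Between control stages Tgfb1 passed at neither step (edgeR adjusted p = 0.646 and 0.202). Macrophage markers rose in controls and were also higher in mutants, 4 of 7 at E10.5 and 6 of 7 at E11.5. Of all genes 7.30% and 8.02% rose in mutants at these stages, and none of the 7 markers was at 0 in any group. Their summed level was 3.92 to 4.73 CPM in controls and 4.67 to 6.90 in mutants at E9.5, 16.3 to 21.5 and 33.5 to 60.5 at E10.5, and 33.3 to 43.6 and 77.0 to 181 at E11.5. Erythroid markers were higher too at E10.5, 5 of 5 against 7.30% of all genes. They summed to 2697 to 5597 CPM in controls and 5884 to 18346 in mutants. The part of either cell type in the level of Tgfb1 was not tested.

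Tgfb2 (chr1:186622792-186705989, minus strand) encodes a TGF-beta needed for skeletal and heart development. Its control libraries lay at 43.8, 51.8 and 50.3 CPM at E9.5, at 65.2, 69.1 and 58.1 at E10.5 and at 121, 99.7 and 118 at E11.5. The mutants lay at 50.4, 72.2 and 50.8 CPM, then at 38.8, 38.1 and 96.2, and then at 60.5, 38.3 and 49.2. At E10.5 mutant replicates 1 and 2 were below all controls and mutant replicate 3, which stood apart, was above them. At E11.5 the groups did not overlap, and Tgfb2 was 2.29-fold lower in mutants (log2 change -1.20 ± 0.27, adjusted p = 0.00583). At E10.5 the change was -0.15 ± 0.27 (adjusted p = 0.763) and rested on that 1 library: without it the change was -0.74, with an adjusted p of 0.0222.

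Tgfb3 (chr12:86056745-86079041, minus strand), known for its role in closing the palate, rose steadily in controls. Its control libraries held 5.31, 7.84 and 8.02 CPM at E9.5, 20.2, 24.3 and 22.6 at E10.5 and 41.3, 48.4 and 46.3 at E11.5. The rise was 3.16-fold at the first step (adjusted p = 2.92e-05) and 2.03-fold at the second (adjusted p = 0.00493). Mutant libraries went from 4.87, 4.43 and 6.32 CPM to 12.6, 18.8 and 14.7 and then to 36.8, 27.4 and 20.9, and did not overlap the controls at E10.5 or E11.5. The mutant change of -0.54 ± 0.20 at E10.5 missed the threshold (adjusted p = 0.0896), where edgeR called 13.9% of all genes. It passed with the E10.5 libraries fitted alone (adjusted p = 0.0148), which called 34.6% of all genes. It also passed with the trend with gene length removed (adjusted p = 0.0453), which called 16.2%. The E11.5 fall of -0.68 ± 0.20 passed (adjusted p = 0.0290) and was lost without control replicate 2 or 3 or mutant replicate 2 or 3 (adjusted p from 0.083 to 0.155). Cartilage precursor markers moved with Tgfb2 and Tgfb3 at E11.5: 6 of 7 were lower in mutants, where 9.52% of all genes fell. Their sum was 1252 to 1389 CPM in controls and 186 to 244 in mutants. At E10.5, 4 of 7 were lower and 1 was higher (649.7 to 823 CPM and 320.3 to 363). Of all genes 6.63% fell and 7.30% rose there. None of the 7 markers was at 0 in any group, and their part in the change of the ligands was not tested.

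Both activin genes were low in the bud at E9.5 and E10.5, and Inhba alone rose in the E11.5 controls with edgeR. Inhba (chr13:16011851-16031621, plus strand) encodes the beta A subunit, which pairs with itself to form activin A. It had 0, 18 and 6 counts in the E9.5 controls and 2, 6 and 2 in the mutants, where a count of 0 allows up to 0.0748 CPM. At E10.5 it ran from 0.219 to 0.677 CPM in controls and from 0.226 to 0.803 in mutants. It then rose in controls to 6.68, 15.4 and 16.9 CPM at E11.5 (log2 change 4.66 ± 0.74, adjusted p = 0.000996), while the mutants stood at 7.82, 5.05 and 1.32. The groups overlapped there through control replicate 1 and mutant replicate 1, and the mutant change of -1.46 ± 0.63 did not pass (adjusted p = 0.124).

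Inhbb (chr1:119415465-119422248, minus strand), the gene of the beta B subunit, was below 2.3 CPM in all libraries. In controls it stood at 0.374, 1.85 and 2.00 CPM at E9.5, 0.410, 0.199 and 0.578 at E10.5 and 0.890, 1.05 and 2.24 at E11.5. In mutants it stood at 1.69, 1.91 and 1.03 CPM, then 0.528, 0.564 and 1.80, and then 0.244, 0.674 and 0.367. The E11.5 groups did not overlap, but the change of -1.68 ± 0.64 did not pass with edgeR (adjusted p = 0.0800), which called 17.5% of all genes. It passed with DESeq2 (adjusted p = 0.0384, 21.8% of all genes) and with the E11.5 libraries fitted alone (adjusted p = 0.0377, 23.8%). It also passed without both libraries that stood apart (adjusted p = 0.00912, 28.7%). Neither of those libraries is from E11.5, and the size of the change stayed at -1.68. The fall of Inhbb in controls from E9.5 to E10.5 (-1.82 ± 0.64, adjusted p = 0.0418) passed in 1 of the 6 fits that each left out a library, the one without control E9.5 replicate 1, and in the others the adjusted p was between 0.054 and 0.155.

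Gdf11 rose in controls after E9.5 and was lower in mutants at E10.5 and E11.5. Gdf11 (chr10:128882295-128891718, minus strand) and Mstn (chr1:53061640-53068079, plus strand) encode close relatives, and both are bound by the Wfikkn proteins. Their transcripts differ enough for reads to be told apart, as the first 90 coding bases of the mature ligands show (GENCODE M21 transcripts, from the codon after the cleavage site that frees the mature ligand, capitals at the 20 positions where they differ). Over the whole mature coding region of 327 bases, 74.9% of positions were identical, against 63.2% of 1131 aligned bases of the whole reading frames.
Gdf11: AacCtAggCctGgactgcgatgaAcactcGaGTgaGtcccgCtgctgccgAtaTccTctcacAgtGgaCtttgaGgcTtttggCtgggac
Mstn: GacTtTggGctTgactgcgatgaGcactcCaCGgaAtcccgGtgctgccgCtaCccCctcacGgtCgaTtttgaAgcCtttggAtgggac

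Control libraries held 55.2, 64.4 and 75.2 CPM of Gdf11 at E9.5, 102, 100.1 and 99.3 at E10.5 and 98.9, 88.6 and 94.8 at E11.5. Mutant libraries held 61.4, 66.4 and 70.4 CPM, then 69.8, 64.7 and 60.5, and then 57.5, 76.5 and 57.2. The groups overlapped at E9.5, where the change was 0.02 ± 0.12, and every mutant was below every control afterwards. Gdf11 rose 1.55-fold in controls from E9.5 to E10.5 (0.63 ± 0.12, adjusted p = 0.00116) and its change from E10.5 to E11.5 did not pass (-0.09 ± 0.12, adjusted p = 0.713). Relative to controls it was 1.54-fold lower in mutants at E10.5 (-0.63 ± 0.12, adjusted p = 0.00225) and 1.48-fold lower at E11.5 (-0.56 ± 0.12, adjusted p = 0.00395), and both falls held without any 1 library. The window upstream of Gdf11 (RefSeq, GRCm38.p6, chr10:128891719-128891968, minus strand) holds 1 TATAAA and no CAGAC.
Gdf11: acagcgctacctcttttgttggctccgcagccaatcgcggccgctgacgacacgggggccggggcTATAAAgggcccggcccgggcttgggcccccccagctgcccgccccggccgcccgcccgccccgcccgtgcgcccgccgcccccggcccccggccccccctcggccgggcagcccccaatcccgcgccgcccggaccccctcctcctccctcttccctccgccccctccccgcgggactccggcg

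Mstn was detected in few reads at E9.5 and was higher in controls from E10.5. It had 0, 4 and 22 counts in the E9.5 controls, at most 0.453 CPM, and 0, 1 and 1 in the mutants, too few for a fold between the genotypes. At E10.5 it stood at 2.42, 0.798 and 1.26 CPM in controls and 0.462, 0.933 and 0.533 in mutants. The E11.5 controls had 2.48, 1.77 and 2.68 CPM against 3.90, 4.95 and 2.23 in mutants. The rise in controls passed from E9.5 to E10.5 (3.04 ± 0.71, adjusted p = 0.00453) but not when those 2 groups were fitted alone (adjusted p = 0.106). Its size was poorly fixed by the low E9.5 counts, since it ran from 2.51 without control replicate 1 of either stage to 5.09 without control E9.5 replicate 3. The mutant groups overlapped the controls at all 3 stages, and neither the E10.5 change of -1.21 ± 0.63 (adjusted p = 0.220) nor the E11.5 change of 0.68 ± 0.59 (adjusted p = 0.474) passed. Muscle precursor markers, which include genes of the cells that go on to make myostatin, summed to 121 to 143 CPM in controls and 175 to 274 in mutants at E10.5 and to 188 to 254 and 331 to 471 at E11.5. Of these 8 markers, 2 were higher in mutants at E10.5 (Lbx1 and Msc) and 3 at E11.5 (Lbx1, Met and Pax3). Of all genes 7.30% and 8.02% rose there. Myf5 (log2 change -0.37 and 1.41), Myod1 (-0.23 and 0.34), Myog (-0.32 and 0.04) and Pax7 (0.57 and 0.65) passed at neither stage. None of the 8 markers was at 0 in any group, and their part in the level of Mstn was not tested.

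The antagonists had 3 different courses. Fst (chr13:114452290-114458951, minus strand), which encodes follistatin, dipped and then rose in controls, from 2.54, 2.71 and 3.70 CPM at E9.5 to 0.533, 1.97 and 1.20 at E10.5 and 7.33, 15.2 and 16.0 at E11.5. The rise passed (3.38 ± 0.48, adjusted p = 0.000439). The dip (-1.28 ± 0.46, adjusted p = 0.0455) was lost without any 1 of the libraries other than control E10.5 replicate 2 (adjusted p from 0.0516 to 0.172). Mutants followed at 1.92, 2.24 and 3.10 CPM, then 0.594, 1.45 and 1.29, and then 10.54, 8.82 and 3.94. The groups overlapped at each stage and the mutant change did not pass at any (-0.73 ± 0.43 and an adjusted p of 0.270 at E11.5).

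Wfikkn1 (chr17:25877628-25880858, minus strand) fell in controls after E9.5 and was higher in mutants at E10.5 and E11.5. Its control libraries held 29.6, 22.4 and 24.0 CPM at E9.5, 1.87, 1.42 and 1.79 at E10.5 and 1.05, 0.843 and 1.47 at E11.5. The fall in controls from E9.5 to E10.5 was 14.9-fold (-3.90 ± 0.20, adjusted p = 2.88e-09). Mutant libraries held 21.8, 20.8 and 17.5 CPM at E9.5, 3.50, 3.34 and 4.16 at E10.5 and 1.95, 1.98 and 1.74 at E11.5. The mutants were below all controls at E9.5 and above all of them at both later stages. The E9.5 difference of -0.34 ± 0.18 did not pass (adjusted p = 0.499). Wfikkn1 was 2.16-fold higher in the E10.5 mutants (1.11 ± 0.19, adjusted p = 0.000881) and 1.68-fold higher in the E11.5 mutants (0.75 ± 0.20, adjusted p = 0.0154). Leaving out control replicate 1 (adjusted p = 0.0547) or control replicate 2 (adjusted p = 0.0818), or fitting the E11.5 libraries alone (adjusted p = 0.0936), ended the E11.5 call. The window upstream of Wfikkn1 (RefSeq, GRCm38.p6, chr17:25880859-25881108, minus strand) holds 1 CAGAC and no TATAAA.
Wfikkn1: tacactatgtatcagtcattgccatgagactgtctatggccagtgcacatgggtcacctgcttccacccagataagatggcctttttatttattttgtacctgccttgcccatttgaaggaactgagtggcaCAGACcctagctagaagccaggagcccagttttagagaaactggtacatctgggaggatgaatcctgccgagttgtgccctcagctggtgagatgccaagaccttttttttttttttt

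Wfikkn2 (chr11:94235956-94246005, minus strand) took the opposite course. It was low at E9.5, at 0.449, 0.275 and 0.514 CPM in controls and 0.384, 0.238 and 0.166 in mutants. Control libraries reached 5.27, 11.8 and 10.6 CPM at E10.5 and 25.8, 34.4 and 38.2 at E11.5. Mutant libraries reached 0.550, 1.19 and 0.923 CPM at E10.5 and 4.82, 6.45 and 1.39 at E11.5. The control level was 22.4-fold higher at E10.5 than at E9.5 (4.49 ± 0.51) and 3.55-fold higher again at E11.5 (1.83 ± 0.41), also without a test. The values that led to the choice of the axis were 10.3-fold lower in mutants at E10.5 (log2 -3.37 ± 0.47) and 7.73-fold lower at E11.5 (-2.95 ± 0.44), with -0.63 ± 0.60 at E9.5, and they are given without a test. The sums of cartilage precursor and of mesenchyme markers, given above, were lower in the same mutants, though not every marker in them was. Their part in the level of Wfikkn2 was not tested.

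Set beside each other per kilobase of exon, the related antagonists changed places. Wfikkn2 made up 0.806 to 1.40% of the summed FPKM of the pair in controls at E9.5, 65.2 to 84.7% at E10.5 and 94.2 to 96.4% at E11.5. In mutants its share was 0.627 to 1.15%, 9.44 to 19.1% and 34.7 to 68.3%. The sum itself was 2.11, 3.65 and 3.47 FPKM in controls and 1.52, 1.63 and 1.88 in mutants at E10.5. At E11.5 it was 7.16, 9.31 and 10.6 FPKM in controls and 2.03, 2.47 and 1.05 in mutants. Since Wfikkn2 was chosen for its fall, these shares and sums are also a description. The reading frames of the pair were identical at 64.7% of 1641 aligned bases.

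**Figure D3:**
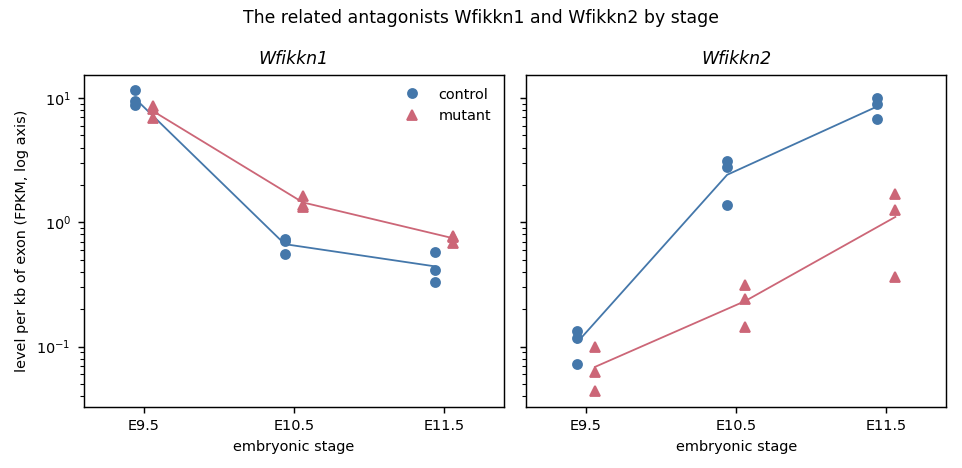
FPKM of Wfikkn1 and Wfikkn2 in each library by stage, on a log axis, with lines through the means of 3 libraries. Control levels of Wfikkn1 drop from between 8.84 and 11.7 to between 0.332 and 0.578 FPKM while those of Wfikkn2 climb from between 0.0718 and 0.134 to between 6.75 and 9.99, and the mutants (triangles) follow with higher Wfikkn1 and lower Wfikkn2 at E10.5 and E11.5.

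The mutant effect itself changed between E9.5 and E10.5 for 1 of the 9 tested members, where 2.22% of all genes did (0.925% upward and 1.29% downward). This was Wfikkn1, with an interaction of 1.45 ± 0.26 (adjusted p = 0.00805). Gdf11 came next by unadjusted p, with an interaction of -0.65 ± 0.17 and an adjusted p of 0.0550. It passed with DESeq2 (adjusted p = 0.0111), which called 9.73% of the 14624 genes it tested there. Between E10.5 and E11.5 the effect changed for 0 of the 9 with edgeR (0.0746% of all genes changed) and also for 0 with DESeq2. In edgeR 3 of the 9 had an unadjusted p under 0.05, as had 1705 of all 20118 genes. These 3 were Tgfb2 (-1.05 ± 0.38), Inhbb (-2.96 ± 0.90) and Mstn (1.89 ± 0.86), named after their values were seen. For Wfikkn2, untested, the interaction was -2.74 ± 0.77 from E9.5 to E10.5 and 0.42 ± 0.60 from E10.5 to E11.5.

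Each sample code in the labels begins with a number whose meaning is not given, and some mutant and control libraries share it. Within code 41 at E10.5, with 2 mutants and 2 controls, the differences of mean log2 CPM were 0.71 for Tgfb1, -0.59 for Gdf11 and 1.05 for Wfikkn1. Tgfb2 differed there by -0.80. A further edgeR fit kept only the code 41 libraries at E10.5. It still held all libraries of the other stages, which share in its estimate of spread. In it Tgfb1 (adjusted p = 0.0350) and Wfikkn1 (adjusted p = 0.0216) passed, as did Tgfb2 (adjusted p = 0.0360), and Gdf11 did not (adjusted p = 0.0502). Within code 79 at E11.5 were 1 mutant and 1 control. The differences of log2 CPM there were 0.37 for Tgfb1, -1.30 for Tgfb2, -0.98 for Tgfb3, -0.79 for Gdf11 and 0.70 for Wfikkn1. Each was in the direction of the whole comparison for that gene. Within code 65 at E9.5, also 1 and 1, Tgfb1 differed by 0.31, Gdf11 by -0.07 and Wfikkn1 by -0.04. The single pairs of codes 79 and 65 carry no test.

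The rest of the pathway was read from 46 further genes, of which 44 passed the filter on low counts (Inhbc and Inhbe did not). At E9.5, 0 of the 44 differed between mutants and controls with edgeR or DESeq2. In edgeR 8 of the 44 had an unadjusted p under 0.05, as had 1996 of all 20118 genes. At E10.5, 5 rose and 2 fell, and at E11.5, 4 rose and 7 fell, so that 7 and then 11 of 44 stand beside the 13.9% and 17.5% of all genes given above. Their median log2 change was -0.09 at E10.5 and -0.20 at E11.5. The E10.5 count moved with the settings, and so did the share of all genes called: it was 21 when the E10.5 libraries were fitted alone (34.6% of all genes), 12 without both libraries that stood apart (18.7%), 3 within code 41 (4.24%), 4 without control replicate 3 (8.16%) and 4 without mutant replicate 3 (7.10%).

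Among the genes that hold TGF-beta latent or release it, 5 of 13 fell at E11.5, where 9.52% of all genes fell, and none rose. DESeq2 called 7 of them lower, with Lrrc32 and Pcsk5, named after their values were seen. It called 21.8% of all genes there, in either direction. Ltbp1, Ltbp3 and Ltbp4 encode latent TGF-beta binding proteins, which tether the latent ligand to the matrix. Ltbp2, of the same family by name, was listed with the target genes below and rose at E10.5 and E11.5 (3.09 and 1.96). Ltbp3 ran from 33.4 to 59.3 CPM in controls and from 13.3 to 21.4 in mutants at E11.5 (-1.46 ± 0.22, adjusted p = 0.000256). Ltbp4 fell by E10.5 (-0.68 ± 0.14, adjusted p = 0.00355), was lower again in the E11.5 mutants (-1.04 ± 0.14, adjusted p = 0.00010), and Ltbp1 fell at E11.5 (-0.95 ± 0.25, adjusted p = 0.0139). For Ltbp1, leaving out control replicate 3 (adjusted p = 0.0759), mutant replicate 1 (0.0638) or mutant replicate 3 (0.0638), or the filter on low counts (0.0579), ended this call. The groups of these 3 genes did not overlap in these comparisons. All of them had risen in controls at both steps, Ltbp3 by 1.29 ± 0.22 and then 1.82 ± 0.22. Bmp1, a protease that cleaves matrix proteins and frees Gdf11 and myostatin from their propeptides, was lower by -0.42 ± 0.10 at E10.5 and -0.62 ± 0.10 at E11.5 (adjusted p = 0.000317). Its E10.5 fall no longer passed without control replicate 3 (adjusted p = 0.0568) or mutant replicate 3 (adjusted p = 0.0542), or with the trend with gene length removed (adjusted p = 0.131). Furin, a convertase that cleaves the precursors of many of these ligands, fell at E11.5 (-0.53 ± 0.09, adjusted p = 0.000629).

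Of 9 receptor genes, Eng rose at both stages and Tgfbr3 fell at E11.5. Eng encodes endoglin, a co-receptor typical of endothelium. It was at 28.9, 27.1 and 32.8 CPM in controls and 58.6, 64.9 and 62.6 in mutants at E10.5 (1.07 ± 0.12, adjusted p = 2.29e-05), and its change at E11.5 was 0.50 ± 0.12 (adjusted p = 0.00828). Of 6 endothelial markers, 2 were higher in mutants at E10.5 and 1 at E11.5, with sums of 299.9 to 334 CPM in controls and 321 to 377 in mutants at E10.5 and 263 to 311 and 251 to 308 at E11.5. None was at 0 in any group, and their part in the level of Eng was not tested. Tgfbr3, the gene of the co-receptor betaglycan, ran from 22.2 to 28.8 CPM in controls and from 14.5 to 16.7 in mutants at E11.5 (-0.64 ± 0.14, adjusted p = 0.00466). The kinase receptors Tgfbr1, Tgfbr2, Acvr1b, Acvr1c, Acvr2a, Acvr2b and Acvrl1 did not pass at either stage with edgeR, and DESeq2 called Tgfbr2 and Acvr2b at E11.5.

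The 12 intracellular genes, which include Smad2, Smad3, Smad4 and Smad7, held 0 changed members at all 3 stages with edgeR. Of them 0, 5 and 4 had an unadjusted p under 0.05, beside 1996, 5626 and 6146 of all 20118 genes. DESeq2 called 1 of them at E10.5, Smad4, which was lower in mutants, and 0 at the other stages. Bambi, whose product is a decoy receptor, rose at E10.5 from 41.8, 43.2 and 44.6 CPM in controls to 69.0, 91.5 and 87.8 in mutants (0.94 ± 0.14, adjusted p = 0.000317), and its E11.5 rise was 0.52 ± 0.14 (adjusted p = 0.0167). Leaving out control replicate 1 (adjusted p = 0.0831) or mutant replicate 3 (adjusted p = 0.0811) ended the E11.5 call. Fstl3, a relative of Fst, rose at E10.5 (1.07 ± 0.31, adjusted p = 0.0280), which held without mutant replicate 1 and was lost without any other library of that stage (adjusted p from 0.0528 to 0.128).

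Of 6 genes known as targets of TGF-beta in other cells, 2 rose and 1 fell at E11.5, where 8.02% of all genes rose and 9.52% fell. Ltbp2, which encodes a matrix protein, ran from 0.103 to 0.359 CPM in controls and from 1.45 to 2.77 in mutants at E10.5 (3.09 ± 0.56, adjusted p = 0.00137) and was higher by 1.96 ± 0.52 at E11.5 (adjusted p = 0.0147). Cdkn2b, the gene of a cell cycle inhibitor, rose by 2.13 ± 0.51 in the E10.5 mutants (adjusted p = 0.0100) and by 1.82 ± 0.50 in those of E11.5 (adjusted p = 0.0181), from at most 0.522 CPM in controls of these stages. Both of these low genes lost a call in some fits that left out a library: Ltbp2 at E11.5 without control replicate 2 or 3 or mutant replicate 1 (adjusted p from 0.0572 to 0.0594), Cdkn2b at E10.5 without control or mutant replicate 3 (0.0588 and 0.0503) and at E11.5 without control replicate 1 or 2 or mutant replicate 2 (0.0569 to 0.0798). With limma on the authors' log2 FPKM values neither gene passed at either stage (adjusted p of 0.0807 and 0.270 for Ltbp2 and of 0.138 and 0.171 for Cdkn2b). Tgfbi, which encodes a secreted matrix protein, moved the other way at E11.5, from 84.7 to 122 CPM in controls to 33.6 to 58.5 in mutants (-1.26 ± 0.21, adjusted p = 0.00054). Ccn2, Postn and Tagln did not pass at any stage.

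**Figure D4:**
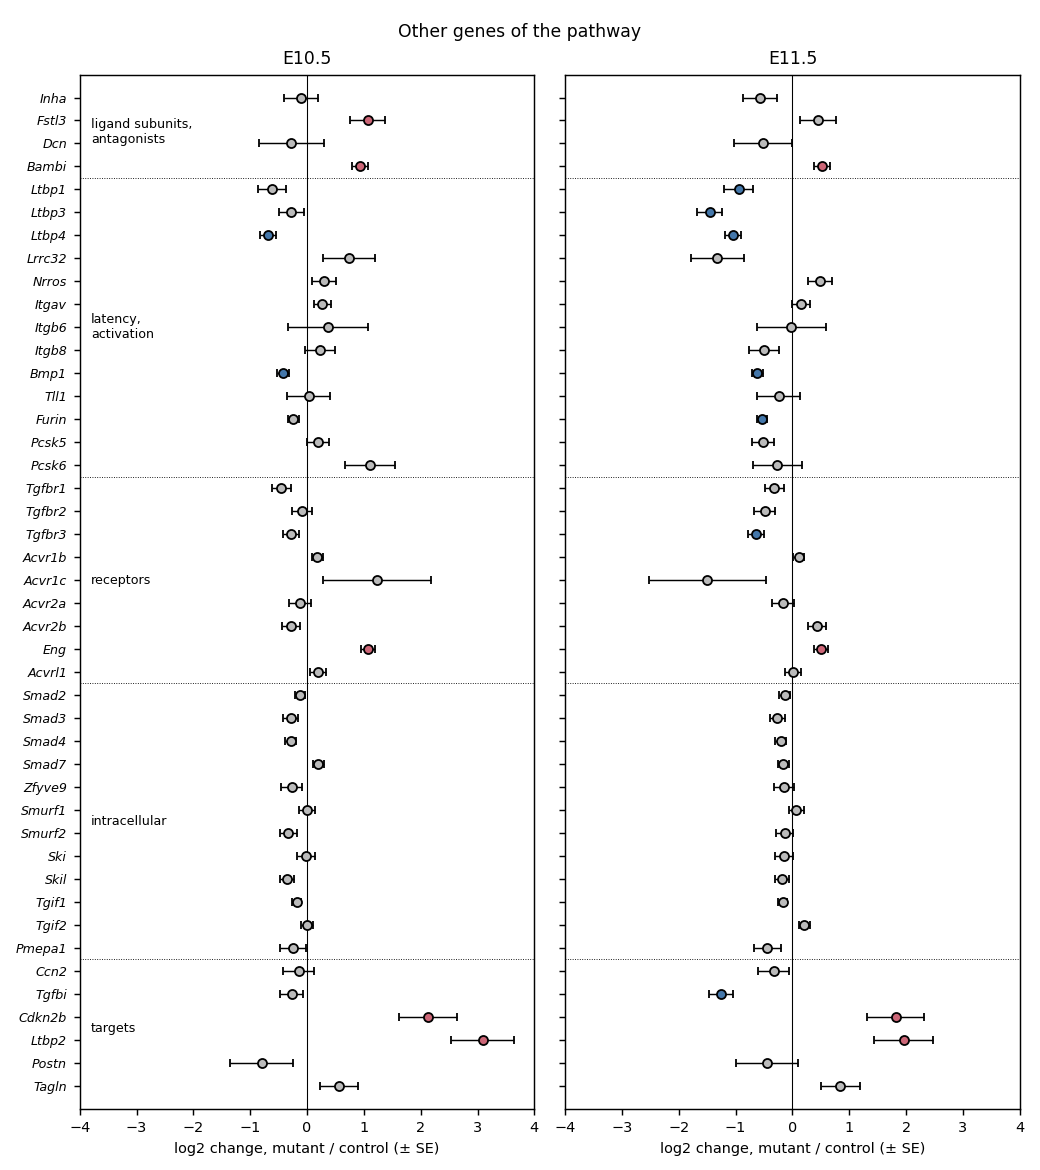
Log2 change between mutants and controls with its standard error for the 44 other pathway genes tested, by role, at E10.5 and E11.5 (3 mutant and 3 control libraries each). Red points rose and blue points fell past an adjusted p of 0.05 and grey points did not pass. At E11.5 the falls lie among the latency and activation genes, with Tgfbr3 and Tgfbi, while every intracellular gene is grey at both stages.

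The genes whose pattern over the 18 libraries was most like that of Wfikkn2 were Col9a2, Osr2, Serinc2, Apc2 and Tspan11. Likeness was the root mean square difference between centred log2 CPM values, among 11791 genes with a mean log2 CPM of at least 1. Genes without a symbol, or with a symbol of Gm and digits or ending in Rik, were left out of these. It was 0.68 for Col9a2, 0.784 for Osr2, 0.816 for Serinc2, 0.816 for Apc2 and 0.856 for Tspan11, where the median of all candidates was 2.479. The closest member of the axis was Tgfb3, at 1.51, and the farthest was Wfikkn1, at 4.095, with Inhba, Inhbb and Mstn below the level limit. Col9a2, which encodes a chain of cartilage collagen IX, averaged 0.977 ± 0.173, 11.1 ± 5.71 and 88.8 ± 25.1 CPM (SD, n = 3) in controls through the 3 stages and 0.621 ± 0.112, 1.21 ± 0.361 and 4.37 ± 1.84 in mutants. Osr2, the gene of a transcription factor of the limb joints and palate, averaged 31.3 ± 7.84 CPM in controls and 1.88 ± 0.631 in mutants at E10.5. These genes were picked for their likeness to a gene that fell, so their levels are a description.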

How the data were processed

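Per the labels, RNA of forelimb buds with an integrity number above 9.5 was sequenced as read pairs. The submitters' processing notes name cutadapt, STAR, featureCounts and limma. Per the file headers, the deposited counts came from featureCounts 1.6.4, run strand by strand over the exons of GENCODE M22 on mm10. The authors also deposited log2 FPKM values for 14692 genes, normalized in a way the sources used here do not give, and these served only as an alternative. Gene symbols were matched for 99.8% of 55487 identifiers.

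In edgeR 4.0.16 (R 4.3.3), filterByExpr kept 20118 genes, TMM factors scaled the libraries, and 1 robust quasi-likelihood model took all 18 libraries in 6 groups. Adjusted p-values are Benjamini-Hochberg values over all genes of a comparison, with a threshold of 0.05. CPM is per scaled library size, and FPKM is that value per kilobase of exon. SE is that of the fitted log2 change, and the limit of a 0 count is 3 counts and covers counting error only. The common biological coefficient of variation was 0.231, so at this depth the spread between libraries limits all but the lowest genes. Alternatives used DESeq2 1.42.0 and limma 3.58.1, and the model was tested on simulated data. The members and gene lists were chosen with earlier results of these data known. A gene of the pathway list is not reported here. Wfikkn2 was left out of all tests, its control stages included, since its control values also entered the choice of the axis. Named were all members, up to 8 other pathway genes per direction with the smallest adjusted p past the threshold, and the 5 genes most like Wfikkn2. No member shares exons on its strand with another gene. Tgfb2, Tgfb3 and Fst overlap genes on the opposite strand.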

Additional observations from a re-analysis of the deposited data

Results flagged for a closer look

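Between E9.5 and E10.5 the difference between mutants and controls itself changed for 3 genes of the axis and its pathway (edgeR's quasi-likelihood interaction test, Benjamini-Hochberg adjustment over all genes). For Wfikkn1 the change of the effect was 1.45 ± 0.26 on the log2 scale, with an adjusted p of 0.00805. For Bambi it was 0.99 ± 0.20, with an adjusted p of 0.0165. For Eng it was 0.78 ± 0.17, with an adjusted p of 0.0269.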

How the results depend on the processing

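The alternatives were followed for members in every comparison and for the called other pathway genes in mutants against controls. All 36 called changes among these kept their sign, and the call was lost in 65 of 520 such fits. Changes of other pathway genes between control stages, and changes of their mutant effect, such as those of Bambi and Eng, were not followed. In controls from E10.5 to E11.5, 6 members changed without both libraries that stood apart (18.1% of all genes), 5 with those groups fitted alone (22.3%) and 5 with DESeq2 (13.5%). At E10.5, 12 other pathway genes differed without both libraries. That last count was 21 when the compared groups were fitted alone. It was 3 with only sample code 41 kept at E10.5, and 4 to 8 when 1 library was left out. Of members, 3 changed in controls from E9.5 to E10.5 when those groups were fitted alone, and 2 to 4 differed at E11.5 when 1 library was left out. The count of members whose effect changed from E9.5 to E10.5 was 2 with DESeq2 (9.73% of the 14624 genes it tested) and with limma on the log2 FPKM values (3.39%). It was also 2 with the gene length trend removed (2.76%) and with the replicate block (3.06%). When 1 library was left out it was 1 to 2 (0.598% to 12.1% of all genes), where the main fit called 2.22%. The second gene was always Gdf11. The replicate block moved no other count of members or pathway genes by over 1.5 times. Over all genes it moved the downward changes of effect from E9.5 to E10.5 from 260 to 403 and the upward and downward ones from E10.5 to E11.5 from 1 and 14 to 0 and 8. Departures from the group means correlated at -0.148 to 0.184 between mutant and control libraries of the same replicate number. Between those of different numbers they correlated at -0.214 to 0.26. At E9.5 the same-number values were 0.184, 0.119 and 0.069. Whether the numbers pair the libraries is not settled by these values. The replicate block ended the calls of Tgfb1 (adjusted p = 0.0818) and Cdkn2b (0.0563) at E11.5 and of Fstl3 at E10.5 (0.0700), and ended no other followed here. With no filter on low counts, Tgfb1 at E11.5 (0.0663) and the falls of Inhbb (0.0560) and Fst (0.0980) in controls lost their calls. With only the code 41 libraries kept at E10.5, Ltbp4 (0.0935), Bmp1, Cdkn2b and Fstl3 lost their E10.5 calls, as did Gdf11. Signs turned only in changes that were not called or not tested. Mutant against control at E9.5, Inhba was at 0.67 with limma and ran from -1.55 to 0.24 when 1 library was left out, Inhbb was at -0.31 without both libraries that stood apart and ran from -0.31 to 0.46, and Gdf11 was at -0.07 and ran from -0.07 to 0.15. At E10.5, Tgfb2 ran from -0.74 to 0.07, Inhba from -1.06 to 0.06 (0.05 without both libraries that stood apart) and Fst from -0.50 to 0.36. For the change of effect from E9.5 to E10.5, Tgfb3 ran from -0.27 to 0.06 (0.09 without both), Inhba from -0.48 to 1.30 (-0.98 with limma) and Fst from -0.20 to 0.67. From E10.5 to E11.5, Tgfb3 ran from -0.36 to 0.05, Gdf11 from -0.09 to 0.14 and Wfikkn2 from -0.03 to 0.84. Inhba and Mstn at E9.5 gave no value when those groups were fitted alone, since the filter removed them there. The causes were not tested.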

Other observations

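At E11.5 the mutant and the control library that share sample code 79 were the lowest of their groups for more members than not. Control replicate 1 was the lowest control for 6 of the 10 members (36.7% of all genes tested) and the highest for Tgfb2 and Gdf11. Mutant replicate 3 was the lowest mutant for 8 of 10 (37.1% of all genes), and both were lowest for 5, namely Tgfb1, Tgfb3, Inhba, Fst and Wfikkn2 (17.8% of all genes). The members are not independent of each other, and no test was made. What the code stands for is not given in the labels.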
